A study of Mus musculus with 16 samples.

Results

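The response of metastatic 4T1 cells to CIX was compared with that of non-metastatic 67NR cells, gene by gene, over all 16 samples of the series. A gene belongs to this comparison if it was expressed in at least 1 of the lines, and 12628 of the 33072 genes in the count table qualified. A gene was left out where its level was below 1 TPM, a level corrected for transcript length and scaled to the library, in more than 3 of the 8 samples of a line, in both lines. For each of these genes the difference between the lines in the effect of CIX, the cell line by treatment interaction, was tested. The genes called were then divided into opposite responses, responses called in 4T1 only and responses called in 67NR only.

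Both lines are mouse mammary carcinoma cells of the BALB/c strain and derive from the same spontaneous tumor. The first group was 67NR cells given vehicle (DMSO) for 24 h, and the second was 67NR cells given 15 µM CIX, an inhibitor of cytosolic phospholipase A2 alpha (cPLA2α), for 24 h. The third and the fourth group were 4T1 cells given vehicle or 15 µM CIX in the same way. All cells were kept in DMEM with fetal bovine serum, and each group held 4 samples. Each metastatic class is represented by 1 cell line, so that a difference between the lines and a difference between metastatic and non-metastatic cells cannot be told apart. Samples carry the numbers of the labels, and values are given in the order 3, 7, 11 and 15 (4T1 vehicle), 4, 8, 12 and 16 (4T1 CIX), 1, 5, 9 and 13 (67NR vehicle), and 2, 6, 10 and 14 (67NR CIX).

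As background, cPLA2α, encoded by Pla2g4a, cuts arachidonic acid from membrane phospholipids, and cyclooxygenases turn it into prostaglandins. Type I interferons act through the kinases JAK1 and TYK2 on a complex of factors that holds STAT2 and IRF9 and binds the interferon-stimulated response element in the promoters of interferon-stimulated genes. The factor FOXM1 drives genes of the G2 phase and mitosis, whose promoters often hold CCAAT boxes and a short element called the cell cycle genes homology region. SREBP2 drives the genes of cholesterol synthesis when sterols are low.

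The total estimated count per sample lay between 21715700 and 29450629, with a median of 23961313. A count of 3, taken as the smallest level that can be detected, corresponded to between 0.1075 and 0.1369 CPM, the count of a gene scaled to the size of its library, and this covers counting error only. The 24 pairs of samples within a group differed beyond counting error (chi-square per gene from 17.9 to 121), so that no library was present as a repeat. The first principal component held 85.3% of the variance and separated the lines, and the second held 4.41% and separated CIX from vehicle in both lines. On the second, 4T1 samples lay between 41.63 and 53.3 with vehicle and between -49.45 and -40.6 with CIX. The 67NR samples lay between 2.49 and 9.655 with vehicle and between -7.795 and -2.185 with CIX. The 5 epithelial markers Cdh1, Epcam, Krt8, Krt18 and Krt19 summed to 2490 to 2900 CPM in 4T1 cells and to 1.07 to 5.36 CPM in 67NR cells, so that the epithelial markers of a carcinoma were at or near 0 in 67NR. The 5 mesenchymal markers summed to between 2590 and 3400 CPM with vehicle and between 4530 and 5420 CPM with CIX in 4T1, and to between 7340 and 8490 CPM and between 10300 and 11200 CPM in 67NR. Lymphocyte markers summed to at most 1.56 CPM in every group. Endothelial markers summed to at most 10.5 CPM in all groups but vehicle treated 4T1 cells, where they reached 47.2 CPM through Esam in sample 7, at 44.5 CPM as compared to at most 0.699 CPM in the other samples. Adipocyte markers lay between 40.2 and 63.6 CPM in all groups. The summed macrophage markers went from between 57.6 and 91.0 CPM to between 134 and 199 CPM in 4T1 and from between 9.36 and 14.2 CPM to between 36.6 and 42.2 CPM in 67NR, through Cd68 alone, while Adgre1 and C1qa were at 0 in all samples. Samples 3 (4T1 vehicle), 4 (4T1 CIX) and 13 (67NR vehicle) had the lowest quality weights, at 0.338, 0.293 and 0.403.

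In the test of the interaction, 993 genes (7.86% of those tested) were called by limma-voom at a Benjamini-Hochberg adjusted p below 0.001. The response to CIX was higher in 4T1 than in 67NR for 607 genes (4.81%) and lower for 386 genes (3.06%). Higher therefore made up 61.1% of the calls with TMM scaling, but 47.3% on the scale of log2(TPM + 1) and 48.3% on that of log2(TPM + 0.1). Within the lines, 1491 genes (11.8%) rose and 1232 (9.76%) fell in 4T1, whereas 74 genes (0.586%) rose and 71 (0.562%) fell in 67NR. The median size of the response over all tested genes was 0.399 on the log2 scale in 4T1 and 0.206 in 67NR. The median SD of log2 CPM between the samples of a group was 0.223 in each of the 4T1 groups, and 0.169 and 0.165 in 67NR with vehicle and with CIX, while the fit estimates 1 spread per gene over all 16 samples. Of the called genes 972 are protein-coding.

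Among these 993 genes, 14 (0.111% of all tested) had responses called in both lines with different signs. In 858 the response was called in 4T1 and not in 67NR, 528 (4.18%) with a rise and 330 (2.61%) with a fall. In 33 genes (0.261%) it was called in 67NR and not in 4T1. A further 5 genes changed the same way in both lines by unequal amounts, and in 83 genes neither response was called alone, all of them with different signs in the lines. Without sample 7 (4T1 vehicle) 652 genes were called, 566 of them in 4T1 only. When each sample was left out in turn, there were between 3 and 18 opposite and between 3 and 48 67NR-only genes. The division depends on the spread shared by the 16 samples and on the threshold. With the response of each line fitted on its own 8 samples there were 1 opposite, 592 4T1-only and 9 67NR-only genes. With an adjusted p below 0.05 for the response within a line there were 182 opposite genes, and with sample quality weights 69. Without samples 3, 4 and 13 there were 23 opposite, 1058 4T1-only and 63 67NR-only genes among 1241 called. All 14 opposite genes kept their call in the interaction in these settings.

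**Figure D1:**
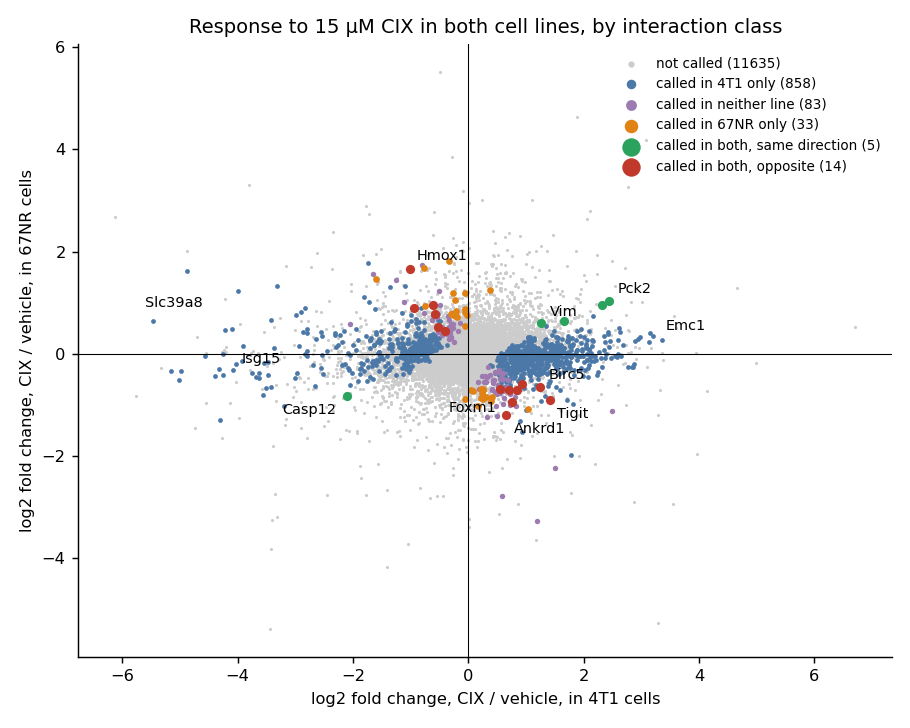
Log2 fold change between CIX and vehicle in 4T1 cells (horizontal axis) and in 67NR cells (vertical axis) for the 12628 tested genes, each point 1 gene, coloured by class of the interaction. The 858 genes called in 4T1 only spread along the horizontal axis near 0 in 67NR, and the 14 opposite genes lie in the upper left and the lower right quadrant.

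Among the opposite genes 8 rose in 4T1 and fell in 67NR, namely Foxm1, Birc5, Ncapd2, Aunip, Hirip3, Tigit, Ankrd1 and Dusp1. Foxm1 (ENSMUSG00000001517, chromosome 6, 128362967 to 128376146 in GRCm38), the mitotic transcription factor, was at 104, 99.1, 89.3 and 102 CPM with vehicle and at 150, 186, 188 and 186 CPM with CIX in 4T1 cells. In 67NR cells it was at 244, 225, 230 and 207 CPM with vehicle and at 153, 149, 129 and 124 CPM with CIX. All CIX samples thus lay above the vehicle samples in 4T1 and below them in 67NR. The log2 fold change was 0.85 in 4T1 and -0.71 in 67NR, and the difference between them was 1.56, with a standard error (SE) of 0.13 (limma-voom adjusted p = 4.18e-06). Birc5, which encodes survivin of the chromosomal passenger complex, was at 63.8, 49.5, 60.3 and 49.6 CPM with vehicle and at 132, 124, 140 and 127 CPM with CIX in 4T1. In 67NR it was at 115, 111, 107 and 116 CPM with vehicle and at 85.8, 72.5, 67.4 and 62.5 CPM with CIX. The groups did not overlap in either line, and the difference of the responses was 1.88 (SE 0.14, limma-voom adjusted p = 1.86e-06).

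Ncapd2, a subunit of the condensin complex, went from 126, 130, 147 and 144 CPM to 185, 259, 249 and 208 CPM in 4T1. In 67NR it went from 151, 168, 166 and 184 CPM to 105, 94.0, 104 and 107 CPM. Its log2 fold change was 0.71 in 4T1 and -0.71 in 67NR, so that the changes were of equal size with different signs. Aunip, which binds the mitotic kinase Aurora A, rose in 4T1 by 0.76 and fell in 67NR by 0.94 on the log2 scale, from between 21.7 and 23.9 CPM to between 10.7 and 13.4 CPM. Hirip3, a histone-binding protein, rose in 4T1 from between 39.5 and 55.0 CPM to between 63.9 and 71.8 CPM and fell in 67NR from between 112 and 145 CPM to between 71.7 and 83.2 CPM.

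The largest difference among the opposite genes that rose in 4T1 was in Tigit (ENSMUSG00000071552, chromosome 16, 43648867 to 43664146), an inhibitory receptor known from T cells and natural killer cells. It was at 30.5, 26.9, 24.2 and 29.3 CPM with vehicle and at 71.4, 74.2, 81.6 and 68.1 CPM with CIX in 4T1, and at 46.5, 48.4, 51.7 and 44.2 CPM with vehicle and 27.3, 26.4, 23.3 and 25.2 CPM with CIX in 67NR. With vehicle 67NR was above 4T1, and with CIX the order of the lines was exchanged. The log2 fold change was 1.41 in 4T1 and -0.90 in 67NR, a difference of 2.31 (SE 0.13, limma-voom adjusted p = 1.59e-07). None of the 10 lymphocyte markers reached a group mean of 1 CPM, among them Cd3e and Nkg7, with Nkg7 at 0 in all samples. A share of 7.58% of the 31-base words in the transcripts of Tigit also occurs in another gene.

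Ankrd1, a target of the coactivators YAP and TAZ, was at 74.2, 88.4, 77.5 and 91.1 CPM with vehicle and at 124, 147, 128 and 124 CPM with CIX in 4T1. The 67NR samples were at 114, 115, 131 and 104 CPM with vehicle and at 53.4, 45.9, 51.9 and 51.2 CPM with CIX. The fall in 67NR, by 1.19 on the log2 scale, was larger than the rise of 0.66 in 4T1. Dusp1, the phosphatase that switches off MAP kinases, rose from between 10.5 and 13.6 CPM to between 21.2 and 24.2 CPM in 4T1 and fell from between 146 and 174 CPM to between 97.9 and 117 CPM in 67NR. Its level stayed far lower in 4T1 than in 67NR under both treatments.

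The other 6 opposite genes fell in 4T1 and rose in 67NR. Hmox1 (ENSMUSG00000005413, chromosome 8, 75093621 to 75100589), which encodes the heme oxygenase induced by oxidative stress, was at 60.7, 103, 103 and 80.0 CPM with vehicle and at 36.0, 45.0, 52.3 and 36.2 CPM with CIX in 4T1. For 67NR cells it stood at 12.5, 11.5, 10.3 and 9.84 CPM with vehicle and at 31, 31.2, 40.9 and 37.3 CPM with CIX. The lines were far apart with vehicle, and after CIX their ranges overlapped between 36.0 and 40.9 CPM. The log2 fold change was -1.01 in 4T1 and 1.66 in 67NR, and the difference of -2.68 (SE 0.27, limma-voom adjusted p = 8.24e-06) was the largest of the 14 genes.

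Fads1, the desaturase that makes arachidonic acid, was at 218, 224, 204 and 215 CPM with vehicle and at 160, 170, 162 and 157 CPM with CIX in 4T1. Levels in 67NR lay at 123, 113, 112 and 96.8 CPM with vehicle and at 154, 149, 154 and 150 CPM with CIX. The ranges of the lines were far apart with vehicle, and after CIX the lowest 4T1 sample (157 CPM) lay just above the highest 67NR sample (154 CPM). Pi4k2b, a phosphatidylinositol kinase, fell by 0.53 in 4T1 and had a log2 fold change of 0.53 in 67NR. St6gal1, a sialyltransferase, was at 111 to 139 CPM with vehicle and at 71.6 to 89.9 CPM with CIX in 4T1, and at 17.9 to 26.2 CPM and 34.5 to 47.7 CPM in 67NR. Mllt11 and the RNA-binding protein gene Mex3d completed the group, with differences of -1.84 and -1.36 between the responses. In each of the 6 genes the vehicle level was higher in 4T1, and the means of the lines were closer to each other after CIX. The response in 67NR was near the threshold for Fads1 (limma-voom adjusted p = 0.000992) and for Mllt11 and Birc5 (0.000957 each).

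**Figure D2:**
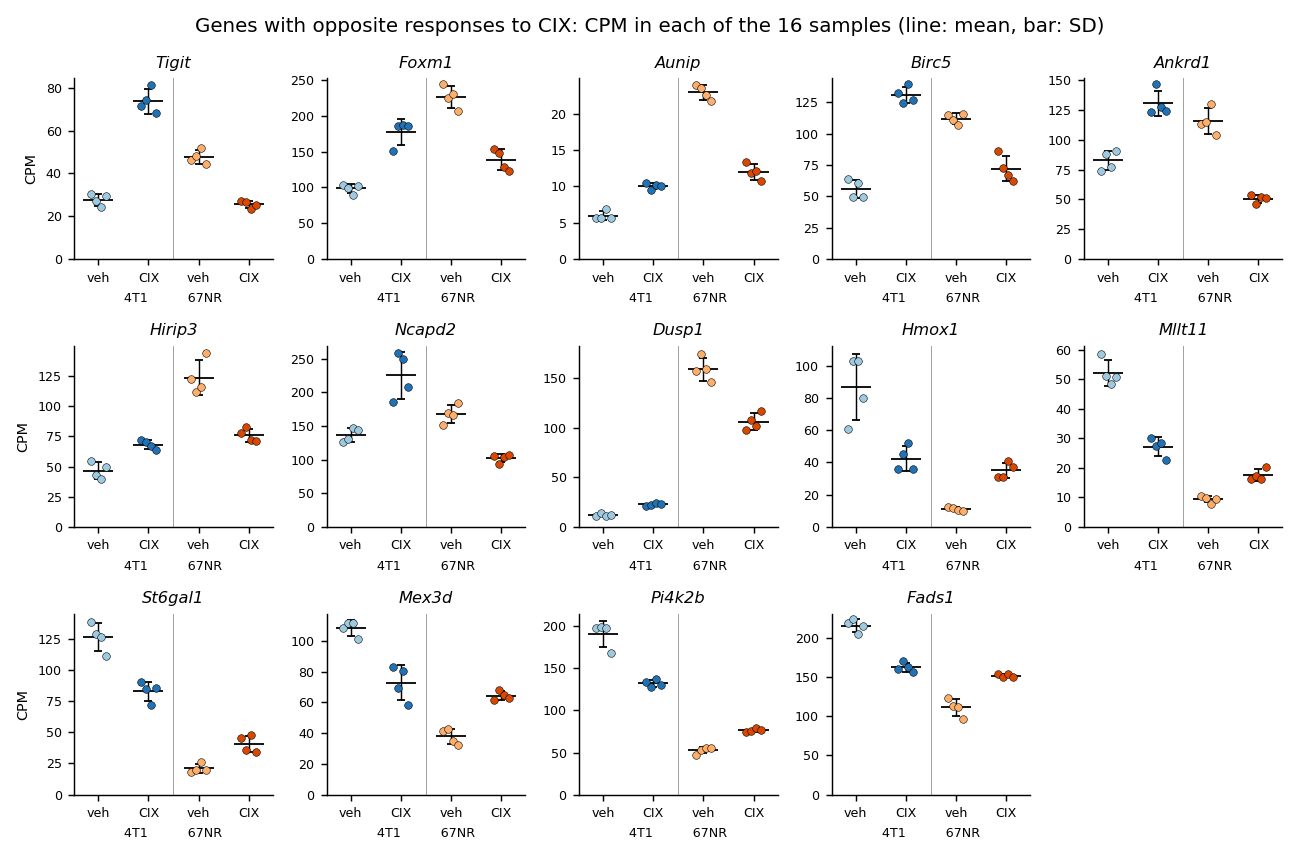
CPM (vertical axes, from 0) of the 14 opposite genes in each of the 16 samples, by cell line and treatment, with the mean as a line and the SD as a bar (n = 4 per group). In each gene the CIX samples lie above the vehicle samples in 1 line and below them in the other, as for Hmox1 with 36.0 to 52.3 CPM in CIX treated 4T1 cells and 31 to 40.9 CPM in CIX treated 67NR cells.

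Of 34 tested genes of the G2/M transition and mitosis, 18 were called in the interaction and all 18 had the higher response in 4T1, where 4.81% of all tested genes did. The difference was above 0 in all 34 genes, as compared to 48.5% of all tested genes, and its median was 0.999 on the log2 scale. The median log2 fold change was 0.561 in 4T1 and -0.425 in 67NR, and 32 of the 34 genes (94.1%) had a value above 0 in 4T1 and below 0 in 67NR, where this held for 19.6% of all genes. Within the lines 14 genes rose and 0 fell in 4T1, where 11.8% of all tested genes rose, and 3 fell and 0 rose in 67NR, where 0.562% fell. The summed level of the 34 genes was 4960, 4940, 5270 and 5150 CPM with vehicle and 6070, 7960, 9170 and 7980 CPM with CIX in 4T1. In 67NR it was 4280, 4280, 4270 and 4540 CPM with vehicle and 3480, 3300, 3050 and 2800 CPM with CIX. No group overlapped with the other treatment of its line. In RNA of whole cultures, a change in the share of cells in mitosis and a change in this RNA per cell cannot be told apart.

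The called genes cover entry into mitosis, the spindle and its checkpoint. Ccna2, the cyclin of S and G2 phase, was at 134, 118, 116 and 134 CPM with vehicle and at 213, 274, 306 and 310 CPM with CIX in 4T1, and at 218, 215, 208 and 181 CPM and 153, 129, 121 and 108 CPM in 67NR. The difference of its responses was 1.82 (SE 0.18, limma-voom adjusted p = 5.73e-06), and the response in 67NR was not called alone (log2 fold change -0.69, limma-voom adjusted p = 0.00268). Bub1b, a kinase of the spindle checkpoint, went from 94.1, 77.0, 130 and 90.2 CPM to 201, 250, 315 and 253 CPM in 4T1 and from 73.3, 73.4, 70.5 and 83.0 CPM to 67.2, 58.0, 57.7 and 52.3 CPM in 67NR. The difference of its responses was 1.75 (SE 0.22). The mitotic kinase gene Plk1, with 14.8% of its words shared with another gene, had log2 fold changes of 1.21 and -0.49, the kinesin gene Kif2c of 1.35 and -0.28, and the kinase gene Aurkb of 0.95 and -0.48 in 4T1 and 67NR. Cdc25b, a phosphatase that activates CDK1, rose in 4T1 by 1.5 and had a log2 fold change of 0.02 in 67NR.

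Cdk1 itself was the 1 member called in 67NR and not in 4T1. It fell in 67NR from between 217 and 254 CPM to between 117 and 174 CPM, while it was between 151 and 186 CPM with vehicle and between 187 and 217 CPM with CIX in 4T1 (log2 fold change 0.26, limma-voom adjusted p = 0.0553). Kif11, Ttk and Prc1, genes of spindle assembly and cytokinesis, were called in the interaction with neither response called alone. The list gave between 14 and 24 called genes when each sample was left out in turn, and 24 without samples 3, 4 and 13.

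The starts of 13 of the 18 called genes were found in RefSeq's promoter table (GRCm38.p6). In the 250 bases before the start, read on both strands, the letters CCAAT were found in 10 of these 13 genes (76.9%), in 12 of 14 tested members that were not called (85.7%) and in 41.5% of the 9341 tested genes with a promoter. The letters TTTGAA of the cell cycle genes homology region were found in 6 of 13 called genes (46.2%), in 4 of 14 not called (28.6%) and in 12.6% of all. These motifs were more frequent in the list than over all genes, and their share did not separate the called members from the others in a single direction. The stretches below show where both motifs stand in the promoters of 5 called genes, from 5′ to 3′ on the strand of the gene, with the letters of either motif, or of its reverse complement, in capitals. They lie at chr10:69352913-69353135 (minus strand) for Cdk1, chr9:70421556-70421736 (minus) for Ccnb2, chr19:37376322-37376381 (plus) for Kif11, chr7:80294399-80294466 (plus) for Prc1 and chr2:164769686-164769920 (plus) for Ube2c, which encodes a ubiquitin-conjugating enzyme that helps to degrade cyclins.
Cdk1: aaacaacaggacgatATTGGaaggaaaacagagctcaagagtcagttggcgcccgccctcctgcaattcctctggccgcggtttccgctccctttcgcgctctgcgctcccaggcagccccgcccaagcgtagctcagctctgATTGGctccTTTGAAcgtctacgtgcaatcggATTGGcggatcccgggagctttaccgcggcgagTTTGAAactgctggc
Ccnb2: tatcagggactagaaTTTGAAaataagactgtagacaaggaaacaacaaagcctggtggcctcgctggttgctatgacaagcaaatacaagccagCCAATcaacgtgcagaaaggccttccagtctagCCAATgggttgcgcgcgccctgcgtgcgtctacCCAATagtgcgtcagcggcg
Kif11: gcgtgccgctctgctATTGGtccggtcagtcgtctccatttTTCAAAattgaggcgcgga
Prc1: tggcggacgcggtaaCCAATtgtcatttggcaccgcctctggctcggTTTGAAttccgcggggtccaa
Ube2c: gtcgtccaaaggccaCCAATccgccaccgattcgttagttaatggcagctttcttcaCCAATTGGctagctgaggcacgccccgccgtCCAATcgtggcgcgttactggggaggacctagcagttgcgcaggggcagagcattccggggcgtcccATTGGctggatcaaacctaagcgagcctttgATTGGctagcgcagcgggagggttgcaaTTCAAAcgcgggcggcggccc
Each of the 5 holds at least 1 CCAAT box and 1 homology region. The last motif ends 10 bases before the start in Cdk1, 17 in Ccnb2, 14 in Kif11, 25 in Prc1 and 24 in Ube2c.

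Of 37 tested genes of DNA replication and S phase, 9 fell and 0 rose in 67NR, where 0.562% of all tested genes fell, and 4 fell and 3 rose in 4T1, where 9.76% fell and 11.8% rose. The median log2 fold change was -0.766 in 67NR and -0.223 in 4T1. The summed level was 4880, 4650, 4730 and 4830 CPM with vehicle and 3280, 2800, 2520 and 2530 CPM with CIX in 67NR, without overlap. In 4T1 it was 4160, 3690, 3430 and 3450 CPM with vehicle and 4020, 3150, 3100 and 3200 CPM with CIX, and the groups overlapped. The interaction was called for 7 genes (18.9%), all higher in 4T1, where 4.81% of all tested genes were, namely Prim1, Uhrf1, Gins2, Pold1, Mcm6, Rfc2 and Pole. Prim1, the catalytic subunit of DNA primase, was at 19.4, 12.9, 11.7 and 16.3 CPM with vehicle and at 41.9, 39.9, 32.4 and 42.0 CPM with CIX in 4T1, and at 107, 102, 106 and 103 CPM and 77.2, 66.3, 59.5 and 67.1 CPM in 67NR. The difference of its responses was 2.02 (SE 0.18, limma-voom adjusted p = 4.78e-06). Uhrf1, a factor of maintenance methylation, had a difference of 1.75, and 24.2% of its words are shared with another gene, so that its reads may be assigned to either. The number of called genes was 3 when any of samples 1, 5, 7, 10 or 14 was left out, 4 without sample 6, 9 or 15, and 9 without samples 3, 4 and 13.

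In DNA repair, 7 of 41 tested genes were called (17.1%), as compared to 7.86% of all tested genes. The count was 4 without any of samples 1, 2, 7, 10 or 14, and 8 without samples 3, 4 and 13. The ligase gene Lig1, which joins Okazaki fragments, was at 78.7, 45.0, 39.9 and 51.8 CPM with vehicle and at 168, 135, 103 and 125 CPM with CIX in 4T1, and at 183, 192, 177 and 164 CPM and 117, 103, 90.7 and 94.0 CPM in 67NR. The CIX samples were above those with vehicle in 4T1 and below them in 67NR, and the responses differed by 2.15 (SE 0.25, limma-voom adjusted p = 2.14e-05). Fancd2, of the Fanconi anemia pathway, had a difference of 1.64, and Bard1, Parp2 and Fanca were also higher in 4T1. Lig4, the ligase of end joining, went the other way, from between 19.7 and 23.2 CPM to between 8.54 and 10.4 CPM in 4T1, with a log2 fold change of 0.29 in 67NR. Xrcc5, a further gene of end joining, had log2 fold changes of -0.50 and 0.13. The list's median log2 fold change was 0.0923 in 4T1 and -0.407 in 67NR.

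For cholesterol synthesis and the targets of SREBP2 the sign of the interaction was below 0 in 24 of 25 tested genes (96.0%), as compared to 51.5% of all tested genes. The median log2 fold change was -0.437 in 4T1 and 0.615 in 67NR, and 21 of the 25 genes (84.0%) were below 0 in 4T1 and above 0 in 67NR, where this held for 22.2% of all genes. Within the lines 1 gene fell in 4T1 (Pmvk) and 1 rose in 67NR (Lpin1) at the threshold, where 9.76% and 0.586% of all tested genes did. The interaction was called for 5 genes (20%, where 7.86% of all tested genes were), Mvd, Pmvk, Lss, Fdft1 (14.3% of its words shared) and Lpin1. The summed level was 3860, 2960, 3420 and 3320 CPM with vehicle and 5410, 4710, 4690 and 4620 CPM with CIX in 67NR, without overlap. In 4T1 it was 6410, 4220, 3660 and 4320 CPM with vehicle and 5320, 3460, 3310 and 3590 CPM with CIX. Samples 1, 2, 3 and 4 were each the highest of their group. The 4T1 groups overlapped, while each CIX sample lay below the vehicle sample numbered just before it. With runs of 4 consecutive numbers as a replicate block 14 genes of the list were called.

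Mvd, which makes isopentenyl diphosphate in the mevalonate pathway, was at 150, 97.7, 88.1 and 96.8 CPM with vehicle and at 115, 67.5, 65.5 and 61.5 CPM with CIX in 4T1. In 67NR it was at 52.4, 34.8, 39.1 and 36.8 CPM with vehicle and at 107, 101, 85.0 and 88.8 CPM with CIX. The 67NR groups were apart and the 4T1 groups overlapped through sample 4, and the responses differed by -1.74 (SE 0.29, limma-voom adjusted p = 3.53e-04). Pmvk, the phosphomevalonate kinase, was at 175, 121, 110 and 116 CPM with vehicle and at 84.5, 66.3, 61.1 and 65.0 CPM with CIX in 4T1, and at 42.5, 37.7, 36.6 and 45.6 CPM and 70.2, 66.5, 59.8 and 62.5 CPM in 67NR. It is the member in which the groups were apart in both lines with the fall in 4T1 called. Lss, which closes the sterol ring, had log2 fold changes of -0.49 and 0.96, and its call was kept in 3 of 16 leave-one-out fits. Without sample 4, 14 genes of the list were called, and without any of samples 2, 5, 6, 8, 9 or 16, 1 gene was. It was 2 without sample 12 or 14, 3 without sample 7, 10 or 13, and 14 without samples 3, 4 and 13. The letters TCACNCCAC of the sterol regulatory element were found before the start of 0 of 4 called genes and 1 of 14 others with a promoter, where 1.21% of all promoters held them.

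Among genes of fatty acid synthesis, 2 of 24 were called (8.33%, where 7.86% of all tested genes were), Fads1 and the desaturase gene Scd1, which had log2 fold changes of -0.32 and 0.41. Of 31 lysosome and autophagy genes, 3 were called (9.68%), also near that share, all lower in 4T1. Npc1, the carrier of cholesterol out of lysosomes, had log2 fold changes of -0.62 in 4T1 and 0.66 in 67NR, and Atg9b of -0.99 and 0.77, with its call kept in 6 of 16 leave-one-out fits. In this list 19 genes (61.3%) were below 0 in 4T1 and above 0 in 67NR, where 22.2% of all genes were.

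**Figure D3:**
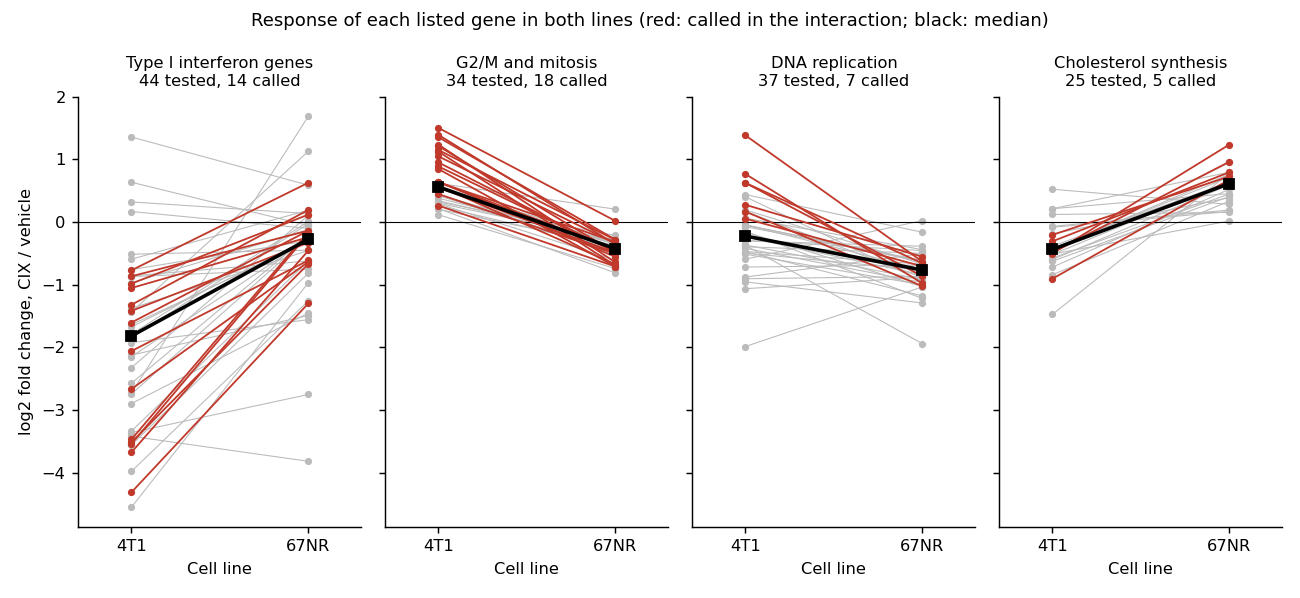
Log2 fold change between CIX and vehicle in 4T1 and in 67NR (vertical axis) for the tested genes of 4 lists, 1 line per gene, with genes called in the interaction in red and the median in black. The median runs from -1.82 to -0.273 in type I interferon genes, from 0.561 to -0.425 in mitosis, from -0.223 to -0.766 in DNA replication and from -0.437 to 0.615 in cholesterol synthesis.

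The 858 genes called in 4T1 only were in large part read in 67NR, where 853 (99.4%) had a mean of 1 TPM or more in a group, as compared to 92.7% of all tested genes. The other 5 were below that level in both 67NR groups. The median size of response was 1.17 in 4T1 and 0.180 in 67NR on the log2 scale, a description only, since a response called in 67NR would have put a gene in another class.

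The 5 genes with the largest difference from 67NR were also taken among those that rose in 4T1 only. They were chosen among protein-coding genes with a group mean of 10 CPM or more and no overlap of the 4T1 groups. Their level in vehicle treated 4T1 cells was low, which a ranking by log2 difference favours, so that it is no separate result. Lmnb2 (ENSMUSG00000062075, chromosome 10, 80901203 to 80918245), a lamin of the nuclear envelope, was at 3.63, 2.54, 3.10 and 4.11 CPM with vehicle and at 33.8, 21.4, 16.5 and 29.5 CPM with CIX in 4T1. The 67NR samples were at 57.6, 48.6, 49.9 and 49.6 CPM with vehicle and at 40.5, 48.1, 46.0 and 45.4 CPM with CIX. The CIX treated 4T1 samples thus lay between vehicle treated 4T1 and 67NR, and the responses differed by 3.06 (SE 0.32, limma-voom adjusted p = 8.46e-06). Emc1, a subunit of the complex that inserts proteins into the membrane of the endoplasmic reticulum, was at 5.78, 2.89, 4.09 and 6.54 CPM with vehicle and at 65.8, 46.4, 37.9 and 46.1 CPM with CIX in 4T1, and between 43.7 and 79.9 CPM in all 67NR samples. Bckdk, the kinase that restrains the breakdown of branched-chain amino acids, rose from between 4.99 and 11.4 CPM to between 33.3 and 80.7 CPM, with 67NR between 93.2 and 121 CPM. Mrnip, which binds the MRN complex of DNA breaks, rose from between 0.66 and 1.03 CPM to between 5.34 and 7.17 CPM, with 67NR between 7.63 and 13.1 CPM. Only in vehicle treated 67NR cells did Mrnip reach a group mean of 10 CPM. Adamtsl4, a protein of the matrix, rose from between 1.98 and 3.33 CPM to between 12.2 and 23.2 CPM. Its call was lost without sample 3 or without sample 7 of the vehicle treated 4T1 cells.

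Among the protein-coding genes that fell in 4T1 only, with a group mean of 10 CPM or more and no overlap of the 4T1 groups, those with the largest difference from 67NR were 4933427I04Rik, Lrrc14b, Cd209c, Csprs and Il1rl1. Cd209c, which encodes a lectin, was at 144, 397, 195 and 377 CPM with vehicle and at 5.46, 8.64, 10.8 and 7.25 CPM with CIX in 4T1, and at 40.1, 36.2, 54.0 and 45.8 CPM and 28.1, 28.8, 23 and 46.1 CPM in 67NR. CIX took 4T1 from above to below the level of 67NR. The responses differed by -4.50 (SE 0.53, limma-voom adjusted p = 2.63e-05). Of its words 19.9% are shared, most with the pseudogene Olfr1372-ps1, which itself went from between 246 and 713 CPM to between 10.2 and 15.6 CPM in 4T1, so that their reads cannot be told apart in full. The uncharacterized gene 4933427I04Rik, with 18.1% of its words shared, was at 36.9, 94.5, 47.6 and 92.4 CPM with vehicle and at 1.25, 1.80, 2.94 and 2.14 CPM with CIX in 4T1, and between 6.76 and 11.7 CPM in all 67NR samples.

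Lrrc14b was at 15.5, 16.1, 16.5 and 12.4 CPM with vehicle and at 0.567, 3.18, 3.01 and 0.0806 CPM with CIX in 4T1, and between 6.69 and 12.5 CPM in 67NR. Il1rl1, the receptor of interleukin 33, was at 6.19, 5.47, 14.2 and 3.09 CPM with vehicle and at 0.081, 0.172, 0.895 and 0.443 CPM with CIX in 4T1, far below the 292 to 424 CPM of the 67NR samples. Its call held in 7 of 16 leave-one-out fits, and its difference lay between -4.58 and -1.45 over all settings. Il1rl1 and Csprs reached a group mean of 10 CPM only in 67NR. Csprs, which was below 1 TPM in both 4T1 groups and was tested through its level in 67NR, had 14, 6, 4 and 13 counts with vehicle and 1, 1, 0 and 0 counts with CIX in 4T1, at or under the floor of 3 counts, and between 145 and 302 counts in the 67NR samples, and its difference between the responses lay between -4.96 and -0.75 over all settings, in both genes with the smallest size on the log2(TPM + 1) scale. The zinc and manganese transporter gene Slc39a8 had 101, 92, 93 and 104 counts with vehicle and 2, 3, 0 and 7 counts with CIX in 4T1. For 67NR cells it stood at 4.72, 4.68, 4.29 and 3.88 CPM with vehicle and at 7.26, 6.12, 7.26 and 6.72 CPM with CIX (interaction, limma-voom adjusted p = 4.18e-06). It was the 1 gene called among 19 metallothioneins and zinc transporters (5.26%, as compared to 7.86% of all tested genes).

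**Figure D4:**
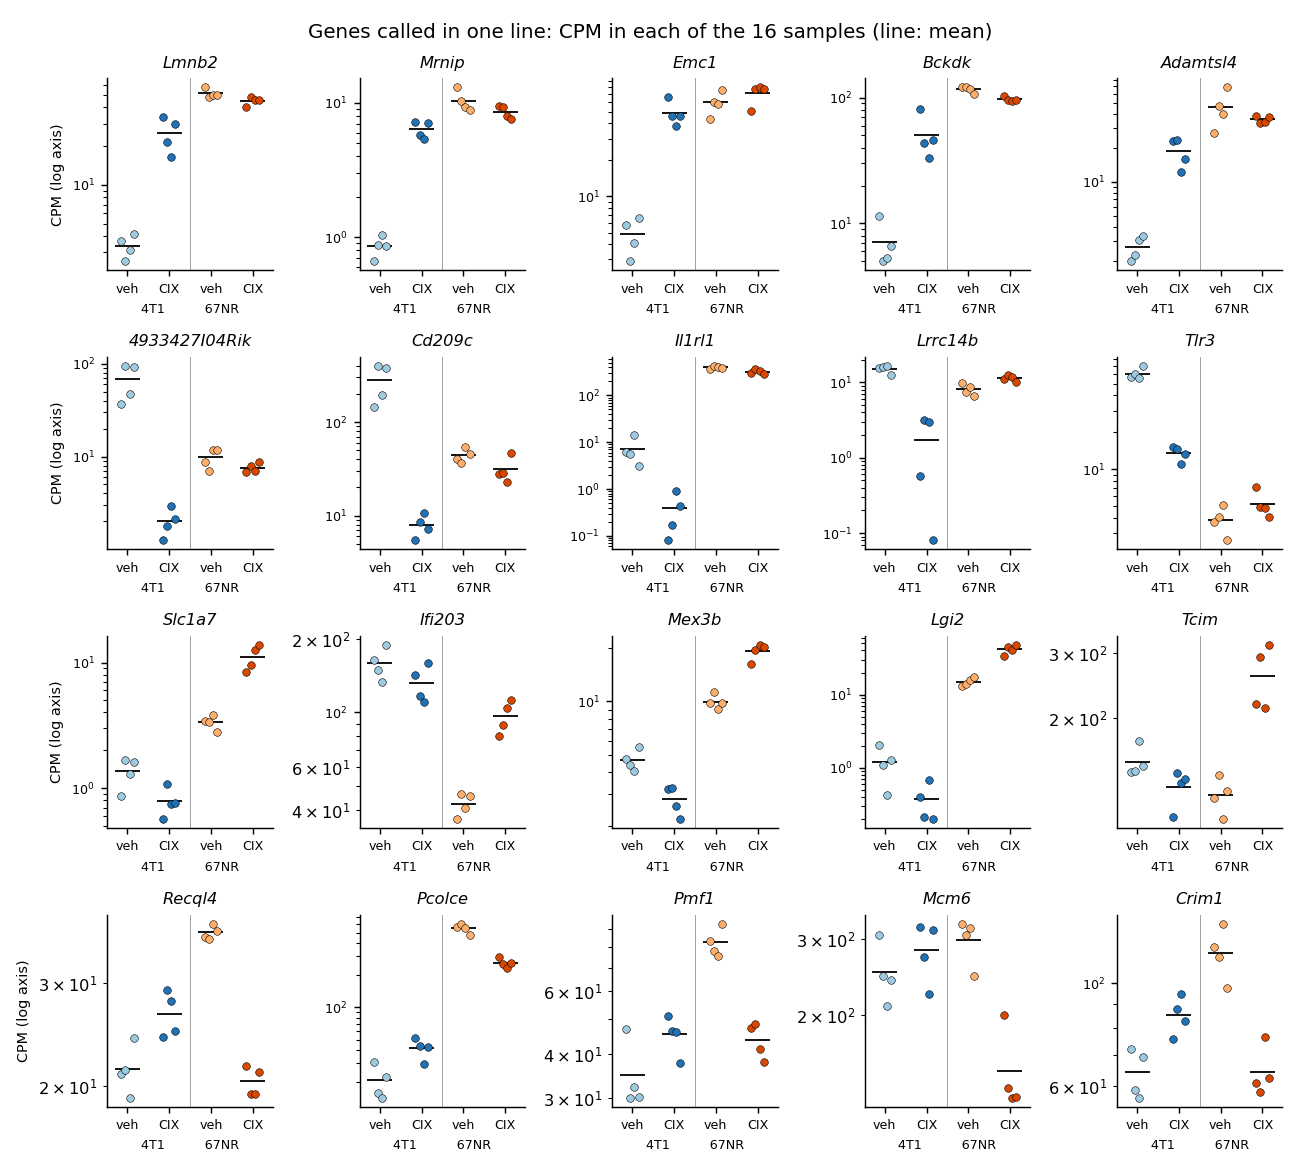
CPM (vertical axes, log scale) in each of the 16 samples, by cell line and treatment, with the mean as a line (n = 4 per group). The genes rose in 4T1 only (upper panels), fell in 4T1 only (the second from top), rose in 67NR only (the third) and fell in 67NR only (the last), as for Lmnb2 at 2.54 to 4.11 CPM in vehicle treated and 16.5 to 33.8 CPM in CIX treated 4T1 cells.

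Type I interferon genes were the group with the lowest median response in 4T1. Of 44 tested genes 34 fell and 2 rose in 4T1, whereas 1 fell (Ifit2) and 0 rose in 67NR. Of all tested genes 9.76% fell and 11.8% rose in 4T1, and 0.562% fell and 0.586% rose in 67NR. The median log2 fold change was -1.82 in 4T1 and -0.273 in 67NR. The interaction was called for 14 genes, all of them lower in 4T1 and called in 4T1 only, as compared to 2.61% of all tested genes, and it was below 0 in 39 of 44 genes (88.6%), as compared to 51.5%. The called genes were Rtp4, Xaf1, Isg15, Gbp2, Gbp3, Trim21, Trim25, Ddx58, Ifi27, Ifi35, Stat2, Bst2, Ifitm3 (20.5% of its words shared) and Samhd1. The summed level was 3860, 3680, 3510 and 4610 CPM with vehicle and 1730, 1700, 1730 and 1770 CPM with CIX in 4T1, and 1260, 1260, 1210 and 1250 CPM and 1120, 1110, 1080 and 1150 CPM in 67NR. The groups were apart in both lines, and vehicle treated 67NR cells lay below CIX treated 4T1 cells. In 67NR 32 of the 44 genes were read. The other 12 were below 1 TPM in both 67NR groups, so that a fall of these could be measured there only roughly or not at all. The count was between 12 and 16 when each sample was left out in turn, and the study drew its own attention to this pathway on the same samples, so that the direction in 4T1 is no independent evidence.

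Isg15 (ENSMUSG00000035692, chromosome 4, 156199424 to 156200818), a ubiquitin-like modifier, was at 69.5, 42.1, 37.0 and 75.4 CPM with vehicle and at 5.71, 2.92, 4.19 and 4.27 CPM with CIX in 4T1. Levels in 67NR lay at 5.75, 6.91, 5.59 and 5.50 CPM with vehicle and at 3.82, 4.30, 4.66 and 4.54 CPM with CIX. The range of CIX treated 4T1 cells overlapped with those of both 67NR groups, and the responses differed by -3.22 (SE 0.46, limma-voom adjusted p = 1.21e-04). Of its words 12.8% are shared with other genes. Rtp4, a chaperone of receptors, was at 43.3, 37.7, 45.7 and 58.3 CPM with vehicle and at 3.52, 2.32, 5.84 and 4.59 CPM with CIX in 4T1, and between 1.12 and 1.83 CPM in all 67NR samples, with a difference of -3.35 and 12.5% of its words shared. Xaf1, a factor of apoptosis, was at 48.9, 36.9, 36.5 and 56.2 CPM with vehicle and at 3.64, 3.87, 3.58 and 4.88 CPM with CIX in 4T1. In 67NR it was at 22.8, 18.7, 15.5 and 22.5 CPM with vehicle and at 21.5, 13.9, 15.2 and 20.8 CPM with CIX. The gene was thus expressed in 67NR, where its treatments overlapped (log2 fold change -0.16, 95% interval from -0.56 to 0.25), and the responses differed by -3.31 (SE 0.31).

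Stat2, the partner of Irf9, had log2 fold changes of -0.77 in 4T1 and 0.63 in 67NR. It was at 101, 84.2, 79.3 and 131 CPM with vehicle and at 50.8, 62.2, 62.0 and 53.1 CPM with CIX in 4T1, and at 25, 26.2, 22.8 and 25.3 CPM and 36.1, 41.1, 31.4 and 46.2 CPM in 67NR. The groups were apart in both lines, in different directions, and the interaction had a limma-voom adjusted p of 2.52e-04, while the response in 67NR was not called (0.0238). Irf9 and Irf7 did not pass the threshold of the interaction, with differences of -1.40 (limma-voom adjusted p = 0.00122) and -2.51 (0.0149). Irf7 was between 0.639 and 1.45 CPM in 67NR, so that its response there was known with a standard error of 0.66. Ifnar2, a chain of the interferon receptor, rose in 4T1 by 1.36 and had a log2 fold change of 0.59 in 67NR, and the kinase gene Tyk2 had values of 0.64 and -0.06, and neither difference was called (limma-voom adjusted p = 0.00611 and 0.00294).

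The interferon-stimulated response element was searched as GAAA, any 2 bases and GAAA on both strands in the 250 bases before the RefSeq starts. It was found in 5 of 12 called genes with a promoter (41.7%), in 7 of 23 tested members that were not called (30.4%) and in 289 of 9341 genes (3.09%). The stretches of the 5 called genes are shown because they hold the element, with its letters, or those of its reverse complement, in capitals. They lie at chr4:156200860-156200911 (minus strand) for Isg15, chr8:71537572-71537617 (minus) for Bst2, chr3:142620589-142620628 (plus) for Gbp2, chr3:142559984-142560029 (plus) for Gbp3 and chr10:128270261-128270300 (plus) for Stat2.
Isg15: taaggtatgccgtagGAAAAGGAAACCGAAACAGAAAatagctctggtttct
Bst2: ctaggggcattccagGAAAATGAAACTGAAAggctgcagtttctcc
Gbp2: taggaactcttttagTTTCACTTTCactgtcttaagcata
Gbp3: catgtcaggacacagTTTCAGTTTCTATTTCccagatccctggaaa
Stat2: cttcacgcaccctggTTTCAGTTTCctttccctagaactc
Isg15 holds 3 overlapping matches, Bst2 and Gbp3 hold 2 each, and Gbp2 and Stat2 hold 1. The last match ends 57 bases before the start in Isg15, 115 in Bst2, 50 in Gbp2, 30 in Gbp3 and 213 in Stat2. Gbp3, a guanylate-binding protein, went from between 19.6 and 39.6 CPM to between 1.00 and 1.81 CPM in 4T1, and was between 1.86 and 3.57 CPM with vehicle and between 0.744 and 1.78 CPM with CIX in 67NR. Bst2, or tetherin, which holds budding virus at the cell surface, went from between 92.6 and 122 CPM to between 47.4 and 55.1 CPM in 4T1 and stayed between 19.0 and 24.6 CPM in 67NR.

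Of 21 tested toll-like receptors, adaptors and kinases, 2 were called (9.52%), a share near the 7.86% of all tested genes. Tlr3, the receptor of double-stranded RNA, was at 56.1, 59.5, 55.2 and 69.6 CPM with vehicle and at 15.2, 14.7, 11.1 and 13.4 CPM with CIX in 4T1. The 67NR samples were at 3.73, 4.10, 5.08 and 2.64 CPM with vehicle and at 7.14, 4.96, 4.79 and 4.06 CPM with CIX. The groups were apart in 4T1 and overlapped in 67NR, and the responses differed by -2.60 (SE 0.28, limma-voom adjusted p = 1.28e-05). Irf3, a factor activated downstream of Tlr3, went the other way, from between 13.6 and 17.7 CPM to between 32.8 and 45.3 CPM in 4T1, and was between 46.9 and 69.6 CPM in 67NR. Its call was kept in 8 of 16 leave-one-out fits. Tirap, Myd88 and Tlr4 had differences of -1.22, -0.86 and -0.43 and were not called, and Tlr9 was left out for its low level, between 0 and 1.15 CPM. Of 25 tested NF-kB genes 0 were called by limma-voom, 1 by edgeR and 2 by DESeq2. An unadjusted p below 0.05 was found for 7 of them (28%), as compared to 39.1% of all tested genes. Rel was among them, with a difference of -0.50 (limma-voom adjusted p = 0.0433), and Stat6, of the interleukin 4 pathway, with a difference of -0.63, was not called either.

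Of 17 tested genes of MHC class I presentation, 3 were called (17.6%), H2-K1, Tapbpl and Psmb10, all lower in 4T1, where 3.06% of all tested genes were, and the interaction was below 0 in all 17, as compared to 51.5% of all genes. Psmb10, a subunit of the immunoproteasome, was at 53.0, 67.1, 76.8 and 66.1 CPM with vehicle and at 22.2, 17.9, 19.7 and 13.1 CPM with CIX in 4T1, and between 8.03 and 13.2 CPM in all 67NR samples. H2-K1, a heavy chain that presents peptides, fell in 4T1 from between 465 and 647 CPM to between 307 and 401 CPM and was between 305 and 349 CPM with vehicle and between 371 and 411 CPM with CIX in 67NR. Its words are shared by 22.8% with other genes of the family. Tapbpl, an editor of the bound peptides, had a difference of -1.27.

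Of 39 nuclear genes of the respiratory chain, 5 were called (12.8%), all with a rise in 4T1 only, where 4.18% of all tested genes had one, namely Uqcrc2, Ndufa5, Atp5d, Ndufv2 and Ndufs7. Uqcrc2, a core subunit of complex III, was at 30.8, 22.0, 27.4 and 28.7 CPM with vehicle and at 122, 101, 94.9 and 132 CPM with CIX in 4T1. For 67NR cells it stood at 181, 176, 176 and 177 CPM with vehicle and at 206, 210, 207 and 169 CPM with CIX. The responses differed by 1.89 (SE 0.17, limma-voom adjusted p = 4.18e-06), and CIX treated 4T1 cells stayed below 67NR cells. The summed level of the 39 genes was 7140, 6900, 7160 and 6130 CPM with vehicle and 8380, 7880, 8280 and 7870 CPM with CIX in 4T1, and 6810, 6660, 6600 and 6930 CPM and 6910, 6470, 6420 and 6150 CPM in 67NR. The groups were apart in 4T1 and overlapped in 67NR. The number of called genes was 10 without sample 3 and 2 without any of samples 1, 7, 10, 14 or 15. Of 18 genes of fatty acid oxidation and PPAR targets, 3 were called (16.7%), where 7.86% of all tested genes were. All 3 rose in 4T1 only, where 4.18% of all tested genes did, namely Acadvl, Acadl and Hadha, enzymes of the chain-shortening cycle. Acadvl was between 15.8 and 27.6 CPM with vehicle and between 53.6 and 72.8 CPM with CIX in 4T1, and between 83.8 and 118 CPM in 67NR.

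Of 27 tested NRF2 and glutathione genes, 5 were called (18.5%, where 7.86% of all tested genes were). Nqo1, the quinone reductase, was at 7.35, 2.89, 3.06 and 4.07 CPM with vehicle and at 27.9, 20.4, 24.6 and 26.2 CPM with CIX in 4T1, and between 7.06 and 10.7 CPM in all 67NR samples, with a difference of 2.34 (SE 0.30, limma-voom adjusted p = 5.26e-05). It rose in 4T1, where Hmox1 of the same list fell. Ftl1, the ferritin light chain, and Taldo1, of the pentose phosphate pathway, also rose in 4T1 only, with 57.7% and 14.0% of their words shared with other genes. The list's median log2 fold change was 0.137 in 4T1 and 0.0534 in 67NR.

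Of 25 matrix genes, 4 were called (16%), all higher in 4T1, where 4.81% of all tested genes were. Sparc, a matrix protein of mesenchymal cells, was at 103, 110, 124 and 92.6 CPM with vehicle and at 215, 240, 233 and 204 CPM with CIX in 4T1, and at 1532, 1604, 1488 and 1387 CPM and 1234, 1275, 1155 and 1180 CPM in 67NR. The level stayed several times lower in 4T1, and the responses differed by 1.37 (SE 0.12, limma-voom adjusted p = 4.18e-06). Col5a1, which kept its call in 5 of 16 leave-one-out fits, and the inhibitor of matrix proteases Timp2 were called in 4T1 only, and Vim in both lines. The summed mesenchymal markers, which hold Vim and Sparc, were higher with CIX in both lines. In 67NR the mean was higher with CIX for Vim (5090 to 7700 CPM), Fn1 (1270 to 1710 CPM) and Cdh2 (159 to 173 CPM). It was lower there for Sparc (1500 to 1210 CPM) and Col1a1 (2.56 to 1.53 CPM). The part of these markers in these results was not tested. Twist1, a factor of the epithelial to mesenchymal transition, rose in 4T1 from between 8.13 and 8.89 CPM to between 14.9 and 17 CPM, with 67NR between 52.9 and 67.7 CPM. Among 12 such factors it was the 1 gene called (8.33%), near the 7.86% of all tested genes. The interaction was below 0 in 8 of the 12 (66.7%), as compared to 51.5% of all tested genes. Of 27 epithelial junction genes 0 were called by limma-voom or edgeR and 1 by DESeq2, with 4 (14.8%) at an unadjusted p below 0.05, where 39.1% of all tested genes were, and 5 of them were read in 67NR. Tgfbr3, a coreceptor of TGF-beta, rose from between 11.4 and 17.9 CPM to between 44.8 and 51.0 CPM in 4T1, with 67NR between 115 and 156 CPM. Of 24 genes in its pathway it was the 1 called (4.17%, where 7.86% of all tested genes were). Axl, a receptor tyrosine kinase and target of YAP, rose in 4T1 by 0.91 and had a log2 fold change of -0.12 in 67NR.

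The target of CIX and the enzymes downstream of it were compared in the same way. Pla2g4a was at 65.5, 94.6, 162 and 58.9 CPM with vehicle and at 119, 107, 187 and 137 CPM with CIX in 4T1, and at 60.2, 81.2, 77.1 and 324 CPM and 108, 116, 176 and 128 CPM in 67NR. The treatments overlapped in both lines, with sample 13 as the highest, and the difference of the responses was 0.32 (SE 0.60, limma-voom adjusted p = 0.740). Without sample 13 (67NR vehicle) the difference had the other sign, at -0.22 (limma-voom adjusted p = 0.733). The inducible cyclooxygenase gene Ptgs2 rose in 67NR by 1.59, from 79.7, 65.8, 76.7 and 95.2 CPM to 155, 204, 269 and 374 CPM. In 4T1 it was at 472, 401, 400 and 454 CPM with vehicle and at 547, 634, 854 and 711 CPM with CIX, a log2 fold change of 0.65 with a limma-voom adjusted p of 0.0122. The difference of -0.93 between the lines was not called (limma-voom adjusted p = 0.0282). Ptges, the prostaglandin E synthase, had log2 fold changes of -0.38 and 0.91 and was not called.

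Among 14 tested eicosanoid genes, 3 were called (21.4%), all higher in 4T1, where 4.81% of all tested genes were. Lta4h, which makes leukotriene B4, was at 44.7, 45.0, 43.8 and 45.4 CPM with vehicle and at 104, 99.7, 106 and 126 CPM with CIX in 4T1, and at 115, 104, 121 and 104 CPM and 115, 103, 98.6 and 90.9 CPM in 67NR. The 4T1 cells reached the level of 67NR, and the responses differed by 1.41 (SE 0.13, limma-voom adjusted p = 4.78e-06). Ptgs1, the constitutive cyclooxygenase, rose in 4T1 from between 120 and 132 CPM to between 169 and 203 CPM, and had a log2 fold change of -0.24 in 67NR. Ephx1, an epoxide hydrolase, had log2 fold changes of 0.72 and -0.79, neither of them called alone. Of 18 phospholipases and remodelling enzymes 1 was called (5.56%, where 7.86% of all tested genes were). This was Lpcat4, a lysophospholipid acyltransferase, with a rise of 0.85 in 4T1.

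In 67NR only, 17 genes rose and 16 fell. In 4T1 31 of the 33 had a mean of 1 TPM or more in a group, and the other 2, Slc1a7 and Lgi2, did not and were tested through their level in 67NR, so that a response in 4T1 could hardly be read. Slc1a7, a glutamate transporter, was at 3.45, 3.39, 3.85 and 2.81 CPM with vehicle and at 8.42, 9.59, 12.5 and 13.8 CPM with CIX in 67NR. In 4T1 it was at 0.867, 1.66, 1.29 and 1.60 CPM with vehicle and at 0.567, 1.07, 0.752 and 0.766 CPM with CIX. The groups were apart in 67NR, and the difference from the response in 4T1 lay between -2.64 and -1.57 over all settings, the latter on the log2(TPM + 1) scale. Ifi203, a nuclear protein induced by interferon, rose in 67NR from 36.8, 46.4, 40.8 and 45.6 CPM to 80.5, 88.5, 105 and 113 CPM, while it was between 133 and 189 CPM with vehicle and between 110 and 159 CPM with CIX in 4T1. Its rise stands beside the lower median of the interferon list in the same line, and 21.6% of its words are shared with related genes. Tcim, a regulator of Wnt signaling, rose in 67NR from between 107 and 141 CPM to between 213 and 315 CPM, with a log2 fold change of -0.23 in 4T1.

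The RNA-binding protein gene Mex3b rose in 67NR by 0.94 and had a log2 fold change of -0.75 in 4T1 (limma-voom adjusted p = 0.00470), so that it resembled its relative Mex3d of the opposite group in sign. Lgi2, a secreted protein, rose from between 13.0 and 17.4 CPM to between 33.5 and 47.7 CPM in 67NR and was between 0.202 and 2.06 CPM in 4T1, and its call in the interaction was kept in 2 of 16 leave-one-out fits. Of the genes that fell in 67NR, Recql4, a DNA helicase, went from 36.0, 35.7, 37.9 and 36.9 CPM to 21.6, 19.4, 19.4 and 21.1 CPM, with 4T1 between 19.1 and 24.1 CPM with vehicle and between 24.3 and 29.2 CPM with CIX. Mcm6, of the replicative helicase, went from 325, 306, 318 and 247 CPM to 200, 136, 129 and 129 CPM in 67NR, with a log2 fold change of 0.17 in 4T1, and its call was kept in 4 of 16 leave-one-out fits. Pmf1, of the kinetochore, fell from between 75.6 and 93.1 CPM to between 38.0 and 48.4 CPM.

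Pcolce, which enhances the cutting of procollagen, fell in 67NR from 570, 608, 557 and 479 CPM to 299, 258, 232 and 258 CPM. In 4T1 it was at 30.6, 16.0, 14.2 and 22.5 CPM with vehicle and at 51.9, 44.0, 29.6 and 42.6 CPM with CIX, a log2 fold change of 1.04 that missed the threshold (limma-voom adjusted p = 0.00101). The responses differed by 2.12 (SE 0.27, limma-voom adjusted p = 4.38e-05), and the class of this gene rests on that margin. Crim1, which binds bone morphogenetic proteins, fell from between 97.6 and 134 CPM to between 58.1 and 76.3 CPM in 67NR and had a log2 fold change of 0.41 in 4T1. Like Ankrd1, it belongs to the list of YAP and TAZ targets, of which 3 of 19 tested genes were called (15.8%, as compared to 7.86% of all).

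The 5 genes that changed the same way in both lines all changed more in 4T1. Pck2, the mitochondrial enzyme that makes phosphoenolpyruvate, was at 32.9, 24.0, 23.5 and 37.6 CPM with vehicle and at 148, 155, 140 and 188 CPM with CIX in 4T1, and at 44.4, 39.9, 38.8 and 34.6 CPM and 64.2, 82.7, 92.4 and 87.8 CPM in 67NR. It rose by 2.43 and by 1.04 on the log2 scale. Abcd4, a transporter of vitamin B12, rose by 2.31 and 0.95, the heme transporter gene Slc48a1 by 1.66 and 0.64, and Vim, the intermediate filament of mesenchymal cells, by 1.26 and 0.60. Casp12, a caspase of the endoplasmic reticulum, fell from between 28.1 and 37.4 CPM to between 6.49 and 8.60 CPM in 4T1 and from between 87.5 and 100 CPM to between 43.0 and 61.5 CPM in 67NR.

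The remaining lists are given by their counts, beside the 7.86% called of all tested genes. Of 23 targets of Trp53, 5 were called (21.7%), with Fas and Gtse1 higher and Trp53inp1, Rrm2b and Mdm2 lower in 4T1, and between 0 and 4 when a sample was left out. Atf5 was the 1 gene called of 27 amino acid response genes, whose medians were 0.550 and 0.490 in 4T1 and 67NR. Of 22 cytosolic aminoacyl-tRNA synthetases, Vars and Yars were called and rose in 4T1, and Yars kept its call in 1 of 16 leave-one-out fits. In the unfolded protein response 1 of 23 genes was called, Syvn1, a ubiquitin ligase that fell by 1.47 in 4T1 and kept its call in 2 of 16 leave-one-out fits. Among 20 heat shock proteins Hspb8 was higher, and Dnaja1 (13.4% of its words shared) and Cryab were lower in 4T1. Of 20 genes of the G1 phase, the retinoblastoma relatives Rbl1 and Rbl2 were higher, with log2 fold changes of 1.24 and -0.68 for Rbl1, and Rbl2 kept its call in 1 of 16 leave-one-out fits. Of 46 splicing genes Snrpa1 was called, with a rise of 2.26 in 4T1 and a value of 0.04 in 67NR, and of 36 proteasome subunits Psmd3 and Psmb10 were called, in different directions.

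Bcl2, the inhibitor of apoptosis, was the 1 gene called of 15 in its family, with a rise of 0.96 in 4T1 and a value of -0.24 in 67NR. Of 32 genes of glycolysis and hypoxia the glucose transporter gene Slc2a1 was called, with log2 fold changes of -0.26 and 0.50 and in 6 of 16 leave-one-out fits, and of 14 integrin subunits Itgb4, with 0.50 and -1.21. Dusp1 was the 1 gene called of 29 genes of ERK feedback and early response, whose median was -0.0748 in 4T1 and 0.416 in 67NR. Of 47 cytosolic ribosomal proteins 0 were called by limma-voom or by edgeR and 2 by DESeq2, with 4 (8.51%) at an unadjusted p below 0.05, where 39.1% of all tested genes were, and medians of 0.256 and 0.196. The medians of all lists are drawn side by side in the plot of list medians.

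**Figure D5:**
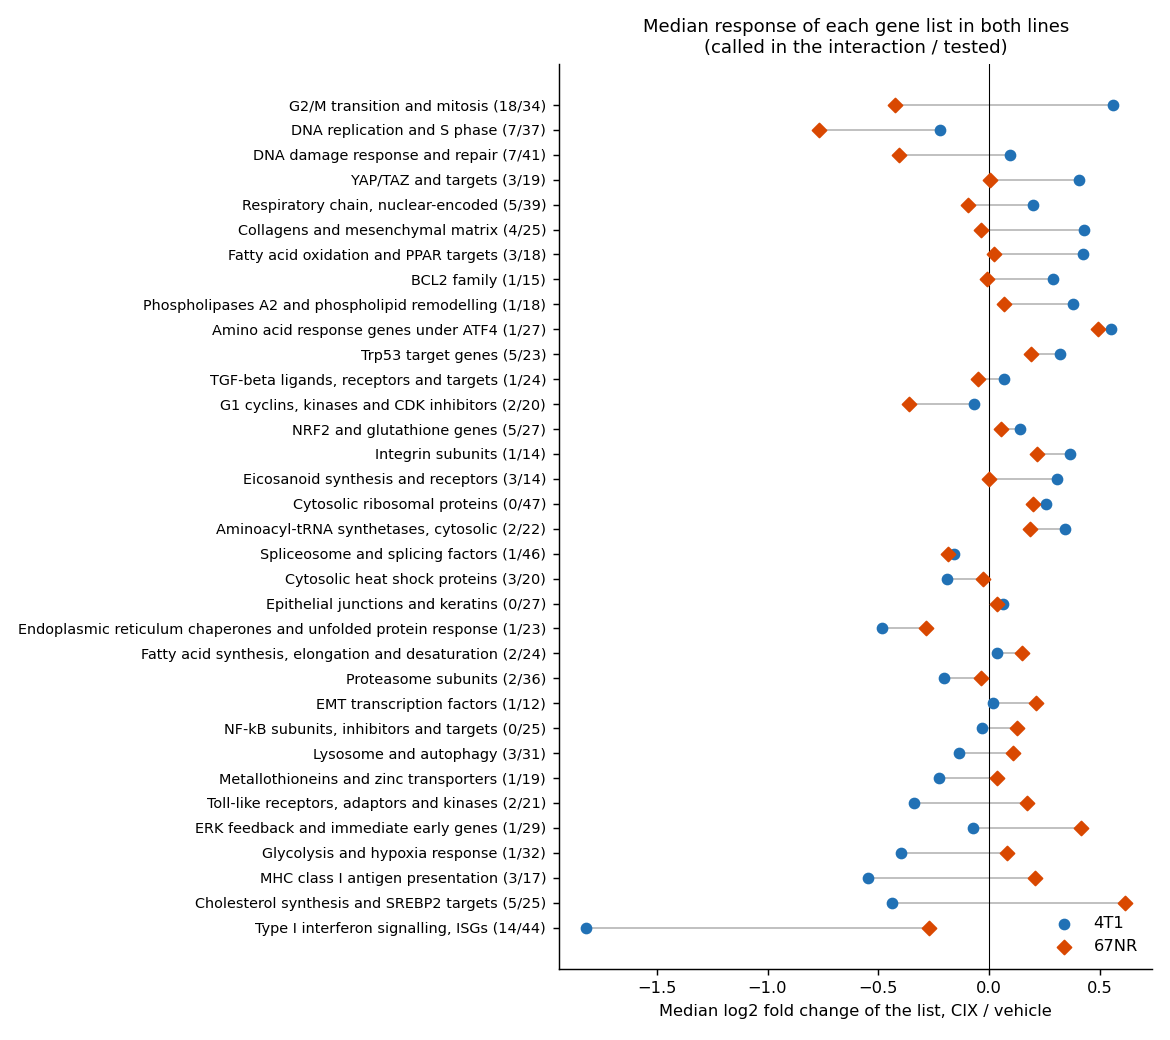
Median log2 fold change between CIX and vehicle (horizontal axis) of 34 gene lists in 4T1 (circles) and in 67NR (diamonds), in the order of the median difference between the lines, with the number of genes called in the interaction and the number tested in brackets. Mitosis (0.561 and -0.425) and cholesterol synthesis (-0.437 and 0.615) lie on different sides of 0 in the lines, and type I interferon genes have the lowest median, at -1.82 in 4T1.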

How the data were processed

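RNA of 16 samples of cultured cells was sequenced as stranded poly(A) libraries. The authors deposited 1 table of estimated counts per gene, made from the reads with Salmon 0.12 as the submitters' processing notes name it. Those notes give the build as GRCh38, while the gene IDs are mouse and the study's methods give GRCm38, whose coordinates are printed here. Rounding to whole numbers preceded the fit. Of 33072 genes, 32911 matched the annotation. TPM were approximated here from the estimated counts and the mean length of a gene's transcripts in the annotation. A gene was tested unless it was below 1 TPM in more than 3 of 8 samples in both lines. CPM were computed after TMM scaling.

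Counts were fitted with limma-voom (limma 3.58.1, edgeR 4.0.16, R 4.3.3) as 4 group means over the 16 samples, and the response in 4T1, the response in 67NR and their difference were tested, each two-sided, at a Benjamini-Hochberg adjusted p below 0.001 over all tested genes. A gene was called read in a line where a group mean reached 1 TPM. The study's methods call the 4 samples of a group biological replicates, without saying what separated them, and p-values measure the spread between these samples. Alternatives were edgeR's quasi-likelihood test, DESeq2 1.42.0, other scalings, filters, thresholds and weights, the log2(TPM + 1) and log2(TPM + 0.1) scales, and leaving out each sample. The scripts were tested on simulated data.

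Named were Pla2g4a, Ptgs2 and Ptges, the genes of the TLR and interferon pathway that the study names, up to 3 called genes per list, and up to 5 protein-coding genes with the largest difference in each direction of the opposite, 4T1-only and 67NR-only classes, with a group mean of 10 CPM or more and no overlap of the groups in the line called. Other called members given beside a count, the other opposite genes, the same-direction genes, and Ifit2, Cd68, Esam and Olfr1372-ps1 were chosen after their values were seen. The members and lists were chosen with earlier results of these data known. Shared sequence is the share of 31-base words of a gene's transcripts found in another gene. Promoter sequences are RefSeq's (GRCm38.p6). Values of some list members are not reported here.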

Additional observations from a re-analysis of the deposited data

Results flagged for a closer look

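The effect of CIX differed between the lines, by the test of the difference itself, for 993 genes, and 14 genes had opposite responses. The differences between the responses of these 14 were 1.85 for Ankrd1, 1.70 for Aunip, 1.88 for Birc5, 1.51 for Dusp1, 1.56 for Foxm1, 1.25 for Hirip3, 1.42 for Ncapd2 and 2.31 for Tigit. They were -0.86 for Fads1, -2.68 for Hmox1, -1.36 for Mex3d, -1.84 for Mllt11, -1.06 for Pi4k2b and -1.57 for St6gal1, all on the log2 scale.

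In 30 of 448 groups of 4 samples, over the 112 named genes, 1 sample stood apart from the other 3 by Dixon's ratio, where chance alone gives about 22.4. In vehicle treated 4T1 cells these were sample 3 for Mvd (150 CPM, others 88.1 to 97.7), Pmf1 (46.9 CPM, others 30 to 32.2) and Snrpa1 (13.7 CPM, others 7.53 to 8.51), sample 11 for Aunip (6.85 CPM, others 5.61 to 5.65), and sample 15 for Cryab (31 CPM, others 35.2 to 36.0) and Pi4k2b (168 CPM, others 198 to 200). In CIX treated 4T1 cells all were sample 4, for Foxm1 (150 CPM, others 186 to 188), Gins2 (37.2 CPM, others 25.9 to 27.8), Ifnar2 (71.9 CPM, others 92.9 to 96.9) and Mvd (115 CPM, others 61.5 to 67.5).

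In vehicle treated 67NR cells sample 1 stood apart for Atf5 (369 CPM, others 277 to 287), Lmnb2 (57.6 CPM, others 48.6 to 49.9), Ptges (47.5 CPM, others 56.1 to 57.6), Rel (9.75 CPM, others 10.4 to 10.5) and Uqcrc2 (181 CPM, others 176 to 177). Sample 5 did so for Acadl (98.4 CPM, others 89.0 to 90.1) and sample 9 for Tlr9 (0.0397 CPM, others at 0). Sample 13 did so for Npc1 (72.0 CPM, others 49.3 to 52.5), Pla2g4a (324 CPM, others 60.2 to 81.2), Psmd3 (195 CPM, others 244 to 248) and Slc48a1 (103 CPM, others 133 to 134).

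In CIX treated 67NR cells sample 2 stood apart for Emc1 (51.0 CPM, others 77.1 to 79.9) and Mcm6 (200 CPM, others 129 to 136), sample 6 for Fas (0.413 CPM, others 0.579 to 0.611), and sample 10 for Lig4 (10.1 CPM, others 11.2 to 11.4) and Tgfbr3 (156 CPM, others 115 to 121). Sample 14 did so for Axl (2110 CPM, others 2340 to 2370), Psmd3 (222 CPM, others at 230), Tlr9 (0.0872 CPM, others at 0) and Uqcrc2 (169 CPM, others 206 to 210). The values of Tlr9 are below the floor of 3 counts.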

How the results depend on the processing

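The number of genes called in the interaction was 1981 with the DESeq2 Wald test, 1914 with sample quality weights, 3701 at an adjusted p below 0.05 and 110 against a fold change of 1.5, and 4T1-only genes were 1608, 1536, 2876 and 102 in turn. For 67NR-only genes these settings gave 173, 140, 305 and 0, fits on the 8 samples of a line 9, no filter 17, and leaving out samples 3, 4 and 13, a setting added after seeing the data, 63. For opposite genes they gave 70, 69, 238 and 8, fits on 8 samples 1, an adjusted p below 0.05 within a line 182, no filter 6 and the 3 samples left out 23, with 8 of the 14 shared. Same-direction genes were 19, 23, 106 and 0 in those settings, 1 with fits on 8 samples, 33 at the within-line threshold, 3 with edgeR, 1 with log2(TPM + 0.1), 2 with log2(TPM + 1), 3 with no filter, 3 with no scaling and 2 with the 3 samples left out. The cause of these changes was not tested, beyond the looser or stricter threshold itself.

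Leaving out each sample gave between 652 and 1071 called genes, with sample 7 the 1 that moved the count by over 1.5 times. It gave between 566 and 921 4T1-only, between 3 and 48 67NR-only, between 3 and 18 opposite and between 1 and 5 same-direction genes. The opposite count was 3 without sample 1, 5, 6 or 10, 4 without 9 or 14, 5 without 13, 6 without 7, 7 without 8 or 16, and 8 without 11 or 15. The 67NR-only count was 3 without sample 1, 4 without 9, 7 without 5, 6 or 14, 8 without 10, 16 without 7, 18 without 8 or 15, and 21 without 16. No called difference of a named gene changed sign.

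All 14 opposite genes stayed called in the interaction in each setting but the fold change threshold of 1.5, where 8 were called. edgeR called 1013 genes, 923 of them shared. Of 99 named genes called, 74 kept the call in each of 16 leave-one-out fits. In the 11 other settings that were followed gene by gene 75 kept it, and the changed thresholds are not among these settings. DESeq2 gave no adjusted p of the interaction for 28 of all 12628 tested genes. The lowest counts of fits, of 16, were 1 for Rbl2 and Yars, 2 for Lgi2, Syvn1 and Trp53inp1, 3 for Lss, 4 for Mcm6 and Gtse1, 5 for Col5a1 and Fas, 6 for Atg9b and Slc2a1, 7 for Cryab and Il1rl1, and 8 for Irf3. The sign of the median of the interferon, mitosis, DNA replication, cholesterol, respiratory chain, lysosome and MHC class I lists was the same in each of 27 settings in both lines, while that of the eicosanoid list in 67NR turned in 13. The labels give each sample a number of its own and no shared replicate number. With each run of 4 consecutive numbers, 1 sample of every group, taken as a replicate block, a setting added after seeing the data, 1095 genes were called, 886 of them shared, with 19 opposite, 933 4T1-only, 60 67NR-only and 3 same-direction genes, and 14 in the cholesterol list. The labels do not tie the samples of a run to each other. Deviations from the group means correlated above 0.1 in 3 of 24 pairs of samples within a run and in 4 of 72 between runs, and 8 of 16 samples correlated best with their own of the 4 runs, a hint from the data only. Levels under 3 counts, or 0.1369 CPM in the shallowest library, could not be read.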
